A study of Homo sapiens with 18 samples.

Results

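Interferon-stimulated genes were examined in K562 cells, a human BCR-ABL1-positive leukemia line. The genes were a list of 37 symbols, taken from the rows of the deposited count table by symbol, and all 37 were among the 27781 genes listed. In the knockdown group, K562 cells were transfected with antisense gapmers against circPCMTD1, a circular RNA of the PCMTD1 gene, aimed at its backsplice junction. In the scrambled group, the same cells were given gapmers of scrambled sequence. The harvest was at 48 hours in each group. The sample descriptions call the reagents siRNA, while the treatment labels and the protocol call them gapmers, the name used here. A gapmer is a short antisense oligonucleotide whose central DNA stretch lets RNase H cut the RNA it pairs with. The series' design text gives 3 biological replicates a group and 3 technical libraries for each, and the libraries that share a first number in their names were summed as 1 replicate. All samples come from 1 cell line.

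Interferons are secreted proteins that bind receptors on the cell surface and activate kinases of the JAK family. For type I interferon these are JAK1 and TYK2, which phosphorylate STAT proteins, STAT2 among them. These join IRF9 and bind interferon-stimulated response elements in the promoters of many genes. The products of those genes limit viruses and other intruders at entry, transcription, translation and release, and some of them are also transcribed at a basal level in cells that have met no interferon. K562 cells are known to lack the interferon alpha and beta genes on the short arm of chromosome 9, through a deletion.

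Single libraries had 19118533 to 29432699 counts and summed replicates 63851576 to 76087774. Levels are given as CPM, each count divided by its sample's TMM-scaled total. PCMTD1 itself was lower, at 12.3 ± 0.515 CPM in knockdown cells and 20.6 ± 1.13 CPM in scrambled cells (SD, n = 3), and its count adds circular and linear RNA. The labels call the cells lymphoblast. Erythroid markers of K562 were high, at a sum over 9 genes of 10386 to 11093 CPM in knockdown and 10016 to 10191 CPM in scrambled samples, while 10 lymphoid markers summed to 16.0 to 17.1 CPM in knockdown and 12.4 to 13.5 CPM in scrambled samples, with MS4A1 and DNTT at 0 counts. Of the lymphoid list, 4 genes were tested and 3 passed as higher in knockdown cells, CD3D and RAG1 among them. Of the 9 erythroid markers, 4 were raised and 1 was lowered. Over all genes tested, 11.1% were raised and 7.49% lowered. The part of these marker changes in the results here was not tested. Knockdown libraries 3_2 and 3_3 stood apart from the other knockdown libraries by GC content. The tenth of genes with the lowest transcript GC content deviated by a median of 0.09 in 3_2 and 0.13 in 3_3 on the log2 scale from the mean of the other knockdown libraries, and the tenth with the highest by -0.15 and -0.17.

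Among the 29 members tested, 13 were raised and 1 was lowered in knockdown cells, 44.8% and 3.45% of those tested, by edgeR's quasi-likelihood test with a Benjamini-Hochberg adjusted p under 0.05. Over all 15678 genes tested, 11.1% were raised and 7.49% lowered by the same rule. The members and the other lists below were chosen with earlier results of these data known. Their shares therefore describe the lists and are not an independent test of them. The 3 knockdown values lay above all 3 scrambled values for 14 tested members and below them for 2, which is 48.3% and 6.90%, beside 18.1% and 16.5% of all genes tested. The median log2 fold change was 0.14 for the tested members and 0.00221 for all genes tested. The raised members were IFITM1, IFITM2, IFITM3, OAS3, SAMD9, ISG15, UBE2L6, IFI6, IFI35, LGALS3BP, PARP9, PARP14 and DTX3L, and the lowered one was IFI16. The other 8 members did not pass the filter on low counts and were not tested. With libraries 3_2 and 3_3 of the knockdown left out, 13 members were raised and 2 lowered, with BST2 and IRF1 added and PARP14 lost. Over all genes, 2589 were raised and 2426 lowered in that fit, beside 1745 and 1175 in the main fit.

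**Figure D1:**
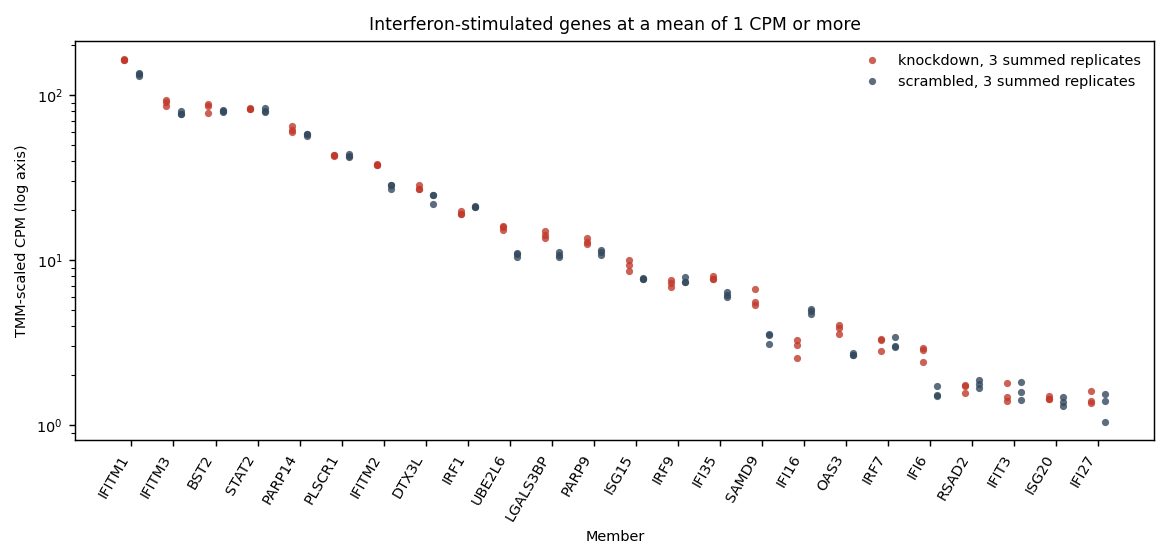
Levels of the 24 members with a mean of 1 CPM or more, as TMM-scaled CPM on a log axis, with 1 point per summed replicate (knockdown left, scrambled right of each position). Members are ordered by mean level, from IFITM1 at 162 to 166 CPM in knockdown and 131 to 137 CPM in scrambled samples to IFI27 below 2 CPM.

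Promoter sequences of 4 called members are shown because the response element is the site by which interferon factors are known to reach these genes. A script searched both strands of RefSeq promoter windows (GRCh38.p14), which run to 50 bases past the annotated start, for the core GAAANNGAAA. It was found for 21 of the 30 members that have an entry, 70.0%, and for 4.38% of the 27305 genes of the promoter table. It was present for 10 of 12 raised members, 7 of 11 members tested and not called, and 4 of 6 members not tested, and it was absent from the IFI16 window. The core of the gamma-activated sequence, TTCNNNGAA, which reads the same on both strands, was found for 10 of the 30 members, 33.3%, and for 9.38% of all genes in the table. A match describes letters in a window and does not show binding. The 4 windows below belong to the called members with the smallest p among those with a match, written 5′ to 3′ on the strand of the gene, with the response element core in capitals.
IFITM1 (chr11:313790-314089, plus strand): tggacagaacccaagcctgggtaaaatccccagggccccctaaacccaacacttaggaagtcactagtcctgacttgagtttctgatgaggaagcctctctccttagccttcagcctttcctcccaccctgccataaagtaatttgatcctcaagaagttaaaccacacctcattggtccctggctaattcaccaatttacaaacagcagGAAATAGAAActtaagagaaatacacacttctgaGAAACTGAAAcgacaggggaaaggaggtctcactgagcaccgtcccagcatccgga
SAMD9 (chr7:93117930-93118229, minus strand): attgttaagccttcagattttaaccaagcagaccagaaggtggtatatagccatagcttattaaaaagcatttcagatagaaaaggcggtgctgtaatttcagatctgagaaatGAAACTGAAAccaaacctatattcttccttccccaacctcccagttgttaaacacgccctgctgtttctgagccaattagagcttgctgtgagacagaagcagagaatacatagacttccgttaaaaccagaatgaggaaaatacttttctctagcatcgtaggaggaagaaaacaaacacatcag
LGALS3BP (chr17:78979874-78980173, minus strand): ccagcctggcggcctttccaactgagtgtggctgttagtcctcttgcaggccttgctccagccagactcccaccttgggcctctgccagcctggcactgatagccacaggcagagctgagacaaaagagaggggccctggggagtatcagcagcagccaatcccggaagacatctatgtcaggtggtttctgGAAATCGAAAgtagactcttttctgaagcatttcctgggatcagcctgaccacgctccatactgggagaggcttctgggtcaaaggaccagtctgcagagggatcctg
IFI6 (chr1:27672143-27672442, minus strand): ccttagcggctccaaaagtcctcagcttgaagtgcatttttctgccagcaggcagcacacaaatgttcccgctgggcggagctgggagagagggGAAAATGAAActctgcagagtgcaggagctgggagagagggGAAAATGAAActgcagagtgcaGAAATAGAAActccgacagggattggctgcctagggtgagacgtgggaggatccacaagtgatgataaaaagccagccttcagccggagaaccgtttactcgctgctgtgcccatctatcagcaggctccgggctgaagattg

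In IFITM1 the core occurred at 2 places, one of which spans the annotated start from position -6 to 4. In IFI6 it occurred at 3 places between -156 and -84, 2 of them the same 10 letters GAAAATGAAA. SAMD9 carried 1 core at -136 to -127 and LGALS3BP 1 core at -58 to -49. IFITM2, IFIT2, OAS2, OASL, MX2, TRIM22 and IRF7 had no entry.

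The IFITM proteins sit in cell membranes and hinder the fusion of entering viruses, and all 3 genes tested were raised. They are neighbours on the short arm of chromosome 11, with IFITM2 and IFITM1 on the plus strand (307631 to 315272 and 313506 to 315272 in GRCh38, GENCODE release 29) and IFITM3 on the minus strand (319669 to 327537). IFITM1 had 162, 166 and 164 CPM in knockdown samples, against 137, 131 and 134 CPM in scrambled samples. That is 1.22-fold higher, a log2 fold change of 0.29 with an SE of 0.028 (edgeR adjusted p = 1.68e-07). IFITM2 had 38.5, 37.7 and 37.7 CPM in knockdown samples, against 28.5, 26.8 and 28.7 CPM in scrambled samples. It had the largest fold of the 3 genes, 1.36, with a log2 fold change of 0.44 and an SE of 0.038 (edgeR adjusted p = 3.01e-08). IFITM3 had 93.9, 91.3 and 86.2 CPM in knockdown samples, against 80.4, 77.3 and 77.3 CPM in scrambled samples, a log2 fold change of 0.21 with an SE of 0.035 (edgeR adjusted p = 0.000173). The groups did not overlap for any of these genes, and for IFITM1 and IFITM2 all 9 knockdown libraries also lay above all 9 scrambled libraries.

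The division of reads among the IFITM genes is uncertain. Their longest reading frames were 94.0% identical between IFITM2 and IFITM3, 90.2% between IFITM1 and IFITM3 and 86.9% between IFITM1 and IFITM2 over aligned bases, and in GENCODE release 29 a transcript of IFITM2 shares 351 exonic bases with IFITM1. Counted as 1 feature, the 3 genes had 294, 295 and 287 CPM in knockdown samples, against 245, 235 and 240 CPM in scrambled samples. The sum was higher by a log2 fold change of 0.28 with an SE of 0.026 (edgeR adjusted p = 8.10e-08). BST2, also called tetherin, holds budding virus at the cell surface and was as abundant as IFITM3. It had 87.9, 85.5 and 77.4 CPM in knockdown samples, against 81.1, 80.7 and 78.9 CPM in scrambled samples, and did not pass the test (log2 fold change 0.06, SE 0.038). The groups overlapped through knockdown replicate 3 alone, the replicate that holds libraries 3_2 and 3_3. BST2 was called as raised without those libraries but not with GC correction, and the cause was not tested.

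ISG15 is a ubiquitin-like modifier and UBE2L6 the enzyme that carries it to its targets, and both genes were raised. UBE2L6 had 16.1, 15.8 and 15.1 CPM in knockdown samples, against 11.1, 10.9 and 10.4 CPM in scrambled samples. It was 1.45-fold higher with a log2 fold change of 0.54 and an SE of 0.052 (edgeR adjusted p = 1.42e-07). All 9 knockdown libraries, from 15.0 to 16.8 CPM, lay above the 9 scrambled libraries, from 9.23 to 11.8 CPM. ISG15 had 9.38, 10.1 and 8.54 CPM in knockdown samples, against 7.84, 7.70 and 7.64 CPM in scrambled samples. The difference was 0.27 on the log2 scale, SE 0.064 (edgeR adjusted p = 0.00471), and single libraries of the groups overlapped. USP18, which removes ISG15 from proteins and restrains the type I receptor, averaged 0.248 CPM in knockdown and 0.151 CPM in scrambled cells and did not pass.

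**Figure D2:**
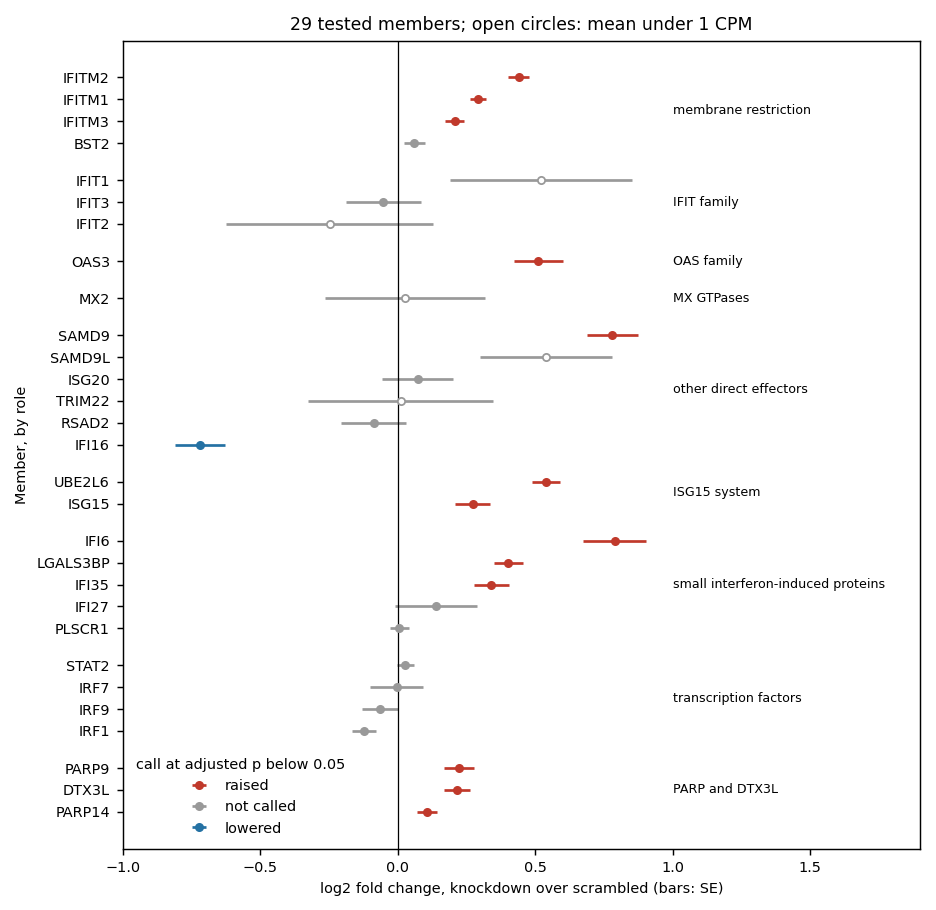
Log2 fold change of the 29 tested members, knockdown over scrambled, with SE bars, grouped by role, with filled circles at a mean of 1 CPM or more and open circles below it. The IFITM genes, the ISG15 pair and the PARP and DTX3L genes lie to the right of 0, the transcription factors lie between -0.12 and 0.03, and IFI16 lies at -0.72.

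Among the genes of antiviral effectors that act inside the cell, 2 were raised and 1 fell. SAMD9 encodes a cytoplasmic protein that restricts poxviruses, in which a domain cleaves a transfer RNA and lowers protein synthesis. It had 5.34, 5.53 and 6.72 CPM in knockdown samples, against 3.52, 3.12 and 3.58 CPM in scrambled samples. It was 1.72-fold higher with a log2 fold change of 0.78 and an SE of 0.091 (edgeR adjusted p = 2.61e-06). Every knockdown library was above every scrambled library, and the highest values were those of knockdown replicate 3. At 36.0% the longest SAMD9 transcript has the lowest GC content among the members, and its log2 fold change was 0.68 when libraries 3_2 and 3_3 were left out. Its neighbour and paralog SAMD9L, 73.7% identical in its reading frame, averaged 0.519 CPM in knockdown and 0.356 CPM in scrambled cells and did not pass.

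OAS3 makes antiviral oligoadenylates when it binds double-stranded RNA. It had 3.87, 4.03 and 3.57 CPM in knockdown samples, against 2.65, 2.74 and 2.66 CPM in scrambled samples. OAS3 was 1.43-fold higher, 0.51 on the log2 scale with an SE of 0.089 (edgeR adjusted p = 0.000292), and all libraries of the groups were apart. The genes on either side of it on chromosome 12 were nearly silent, OAS1 with 2 counts in all knockdown and 1 in all scrambled libraries, and OAS2 with 5 and 1. OASL, a relative that makes no oligoadenylate, had 13 counts in knockdown and 10 in scrambled libraries.

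IFI16, a nuclear sensor of DNA that also represses viral transcription, was the lowered member. It had 3.30, 3.06 and 2.55 CPM in knockdown samples, against 4.94, 4.72 and 5.06 CPM in scrambled samples. That is 39.3% lower, a log2 fold change of -0.72 with an SE of 0.091 (edgeR adjusted p = 6.73e-06). All 9 knockdown libraries, at 3.76 CPM or less, lay below all 9 scrambled libraries, at 4.14 CPM or more. RSAD2, which encodes viperin, averaged 1.67 ± 0.0976 CPM in knockdown and 1.78 ± 0.0997 CPM in scrambled cells (SD, n = 3). ISG20, an exonuclease gene, averaged 1.46 ± 0.0351 CPM in knockdown and 1.39 ± 0.0833 CPM in scrambled cells (SD, n = 3). Neither of the last pair passed the test.

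**Figure D3:**
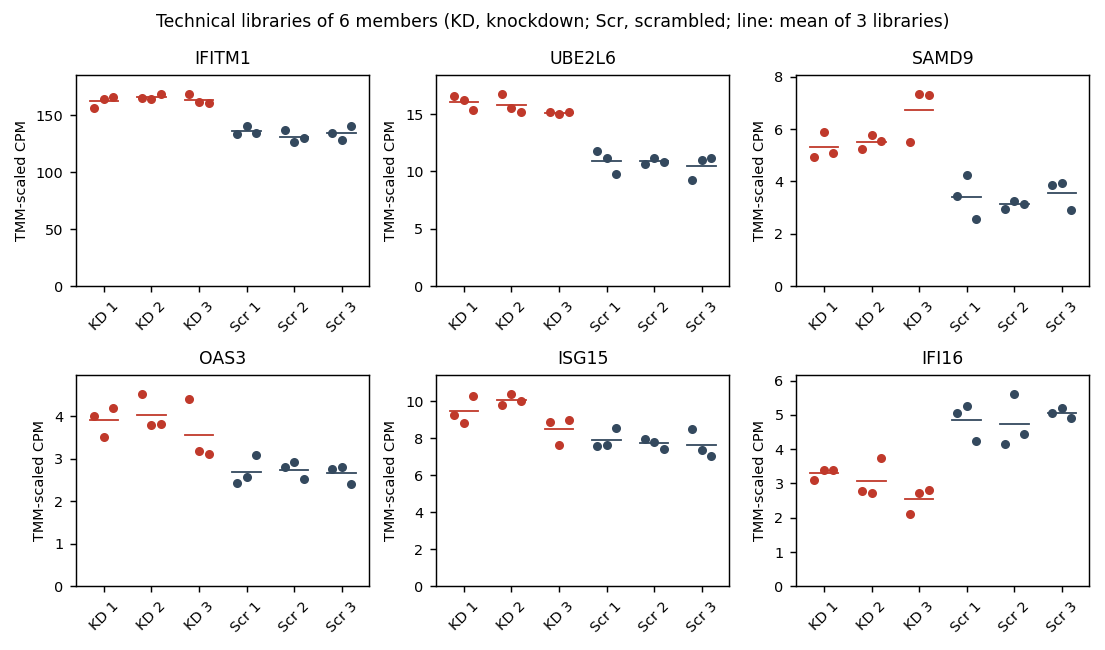
TMM-scaled CPM of the technical libraries for 6 members, with 3 libraries per biological replicate and a line at their mean, knockdown left of scrambled, with axes from 0. The 9 knockdown libraries lie apart from the 9 scrambled ones for IFITM1, UBE2L6, SAMD9, OAS3 and IFI16, while for ISG15 they span 7.65 to 10.4 CPM in knockdown and 7.04 to 8.54 CPM in scrambled cells.

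Of the small interferon-induced proteins, 3 genes were raised. IFI6, a membrane protein gene with antiviral and survival functions, had 2.91, 2.41 and 2.84 CPM in knockdown samples, against 1.496, 1.52 and 1.72 CPM in scrambled samples. It was 1.73-fold higher with a log2 fold change of 0.79 and an SE of 0.12 (edgeR adjusted p = 4.35e-05), from 542 counts in knockdown and 336 in scrambled cells. Its summed replicates did not overlap, but single libraries did. IFI35 had 8.01, 7.64 and 7.72 CPM in knockdown samples, against 6.38, 6.14 and 5.93 CPM in scrambled samples, a log2 fold change of 0.34 with an SE of 0.064 (edgeR adjusted p = 0.000586). LGALS3BP, the gene of a secreted glycoprotein that binds galectins, had 15.0, 14.3 and 13.7 CPM in knockdown samples, against 11.2, 10.5 and 10.8 CPM in scrambled samples. It was higher by 0.40 on the log2 scale, SE 0.054 (edgeR adjusted p = 1.43e-05), and every knockdown library was above every scrambled one. PLSCR1, a phospholipid scramblase gene, averaged 43.0 ± 0.277 CPM in knockdown and 42.9 ± 0.775 CPM in scrambled cells (SD, n = 3), a log2 fold change of 0.01 with an SE of 0.034, and did not pass. IFI27 averaged 1.46 ± 0.136 CPM in knockdown and 1.33 ± 0.254 CPM in scrambled cells (SD, n = 3) and did not pass.

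PARP9 and DTX3L encode partners in an ADP-ribosyl transferase and ubiquitin ligase complex, and PARP14 lies near them on chromosome 3. DTX3L had 27.0, 26.9 and 28.6 CPM in knockdown samples, against 21.8, 24.7 and 24.7 CPM in scrambled samples, a log2 fold change of 0.21 with an SE of 0.047 (edgeR adjusted p = 0.00277). PARP9 had 12.6, 12.9 and 13.5 CPM in knockdown samples, against 10.7, 11.5 and 11.2 CPM in scrambled samples, a log2 fold change of 0.22 with an SE of 0.054 (edgeR adjusted p = 0.00536, and 0.0502 without scrambled replicate 1). The pair are read from opposite strands with 217 shared exonic bases, so without a known strand setting a small part of their reads cannot be told apart. PARP14 had 59.5, 61.6 and 65.0 CPM in knockdown samples, against 58.2, 58.0 and 56.6 CPM in scrambled samples. The difference was 0.11 on the log2 scale, SE 0.035 (edgeR adjusted p = 0.0400). This call was lost in several fits. The adjusted p was 0.0563 in DESeq2, between 0.0864 and 0.161 when knockdown replicate 2 or any scrambled replicate was left out, and 0.210 without knockdown libraries 3_2 and 3_3, where the log2 fold change was 0.04.

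The transcription factors among the members gave no call. STAT2 had 81.8, 83.4 and 82.2 CPM in knockdown samples, against 83.0, 80.5 and 79.3 CPM in scrambled samples (log2 fold change 0.03, SE 0.031, edgeR adjusted p = 0.607). IRF9 had 7.28, 7.54 and 6.82 CPM in knockdown samples, against 7.36, 7.36 and 7.94 CPM in scrambled samples (log2 fold change -0.06, SE 0.065, edgeR adjusted p = 0.545). A read-through gene shares 48.4% of the exonic bases of IRF9 on the same strand. IRF7 averaged 3.13 ± 0.275 CPM in knockdown and 3.14 ± 0.227 CPM in scrambled cells (SD, n = 3). IRF1, which interferon gamma is known to induce, had 19.9, 18.9 and 19.1 CPM in knockdown samples, against 20.9, 21.3 and 20.9 CPM in scrambled samples. All knockdown values of IRF1 were below the scrambled ones, and its log2 fold change of -0.12 with an SE of 0.043 narrowly missed the threshold (edgeR adjusted p = 0.0515). It passed in 9 of 15 other fits, with a log2 fold change from -0.11 to -0.14 in those 9. Among the 9 were the fit with libraries entered singly, which counts technical libraries as replicates, and the sum by the second number, which mixes biological replicates. The fits with a replicate block were also among them, so the 9 are not independent support for a fall of IRF1. A gene on the opposite strand, C5orf56, shares 22.0% of its exonic bases.

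Several genes that interferon is best known for inducing were at or near the limit of detection in both groups. IFI44 and IFI44L had 0 counts in all 18 libraries, which allows up to 0.0151 CPM in the knockdown and 0.0140 CPM in the scrambled group (3 counts of the group total, counting error only). MX1, a GTPase that traps viral nucleocapsids, had 17 counts in knockdown and 24 in scrambled libraries. XAF1 had 10 counts in each group and IFIT5 had 14 in knockdown and 9 in scrambled libraries. IFIT1, IFIT2, MX2 and TRIM22 passed the filter at means between 0.181 and 0.274 CPM and were not called. IFIT3, which binds and stabilises IFIT1 on foreign RNA, was the IFIT gene with the highest level, at 1.56 ± 0.206 CPM in knockdown and 1.61 ± 0.203 CPM in scrambled cells (SD, n = 3), and did not pass. In all, 13 of 37 members had a mean under 1 CPM.

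Levels per kilobase of exon ordered the members differently from their folds. IFITM1 was the most abundant at 138 CPM per kilobase, followed by BST2 at 73.2, IFITM3 at 62.6, IFITM2 at 21.4 and STAT2 at 13.4, each as the mean level over both groups. Among the raised members, the largest folds were those of IFI6, SAMD9, UBE2L6 and OAS3, at 2.48, 0.676, 6.02 and 0.394 CPM per kilobase. Summed over the 37 members, the level was 708, 708 and 696 CPM in knockdown samples, against 631, 621 and 620 CPM in scrambled samples. A few abundant genes weigh most in this sum. The IFITM genes and BST2 together averaged 376 CPM in knockdown and 320 CPM in scrambled cells. The transcription factors together averaged 112 CPM in knockdown and 113 CPM in scrambled cells. In RNA from whole cultures, a change in a few cells and a smaller change in every cell cannot be told apart.

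Other genes of the interferon system were read from a list of 22 ligands, a list of 22 receptors, kinases, factors and inhibitors, and 74 further interferon-stimulated genes. Of the ligands, 18 had 0 counts in every library, the alpha interferon genes, IFNB1 and IFNG among them, and IFNK, with 4 counts in knockdown and 3 in scrambled libraries, had the most. Of 21 tested receptor and signalling genes, 6 were raised and 2 lowered, 28.6% and 9.52%, beside 11.1% and 7.49% of all genes tested. The receptor chains IL10RB, at 24.7 ± 0.937 CPM in knockdown and 21.1 ± 0.466 CPM in scrambled cells, and IFNGR2, at 32.8 ± 0.834 CPM in knockdown and 29.9 ± 0.432 CPM in scrambled cells (SD, n = 3), were raised. JAK2, a kinase of the interferon gamma receptor, fell, with a log2 fold change of -0.25. It averaged 57.6 ± 1.94 CPM in knockdown cells, against 68.6 ± 1.499 CPM in scrambled cells (SD, n = 3). SOCS1, a feedback inhibitor of JAK kinases that interferon itself induces, fell to 8.52 ± 0.813 CPM in knockdown cells, against 10.9 ± 0.353 CPM in scrambled cells (SD, n = 3), while its relative SOCS3 had a log2 fold change of 0.16 and the STAT inhibitor gene PIAS1 one of 0.12. Of the chains of the type I receptor, IFNAR2 was raised, at 22.2 ± 1.36 CPM in knockdown and 19.96 ± 0.775 CPM in scrambled cells (SD, n = 3), with a log2 fold change of 0.15, while IFNAR1, with one of 0.10, did not pass. JAK1 and TYK2 did not pass, with log2 fold changes of 0.05 and -0.01. The number raised was 1 without knockdown replicate 2, without scrambled replicate 1 or without scrambled replicate 3, and 3 without scrambled replicate 2. Over all genes, 1257, 1127, 1241 and 1190 were raised in these fits, in that order, beside 1745 in the main fit. IFNGR2 and PIAS1 lost their call in all 4 of these fits, and SOCS3 in the 3 other than that without scrambled replicate 2.

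**Figure D4:**
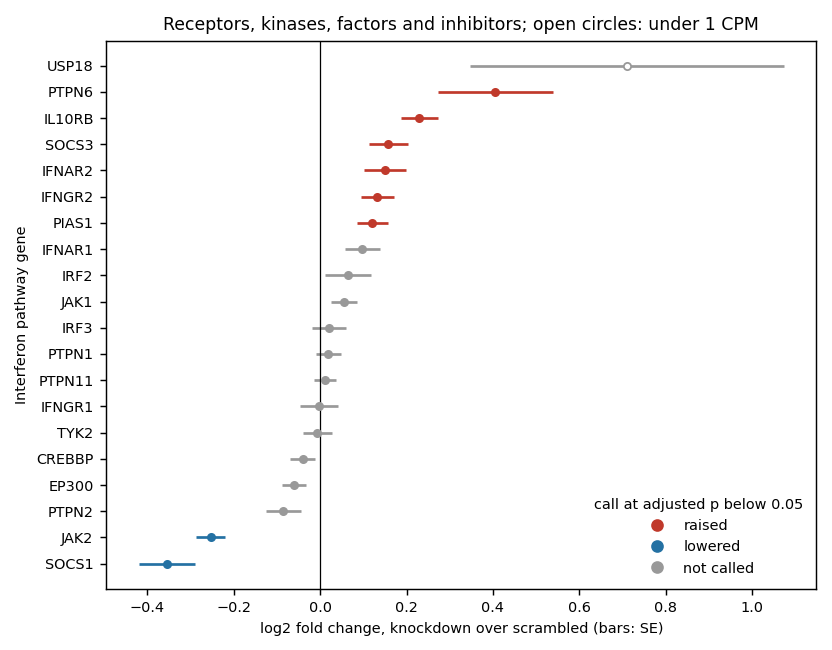
Log2 fold change of 20 of the 21 tested receptor, kinase, factor and inhibitor genes, knockdown over scrambled, with SE bars. JAK2 at -0.25 and SOCS1 at -0.36 lie apart to the left, PTPN6 at 0.41 and USP18, not called, at 0.71 lie farthest to the right.

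Of the further interferon-stimulated genes, 63 were tested, of which 13 were raised and 4 lowered. That is 20.6% and 6.35%, beside 11.1% and 7.49% of all genes tested, so the lowered share was near that of all genes. The median log2 fold change of the 63 genes was 0.07. Those raised with the smallest p were IFI30, SHFL, BATF2 and SP110. IFI30, a thiol reductase gene of antigen processing, averaged 35.6 ± 0.724 CPM in knockdown and 23.0 ± 0.902 CPM in scrambled cells (SD, n = 3), a log2 fold change of 0.63. SHFL, which blocks programmed ribosomal frameshifting, had a log2 fold change of 0.47, BATF2, a leucine zipper factor gene, one of 0.69 and SP110, a nuclear body gene, one of 0.57. The lowered genes were WARS1, a tryptophanyl-tRNA synthetase gene, at -0.19, GBP2, a guanylate-binding protein gene, at -0.45, CMPK2 at -0.19 and the ubiquitin ligase gene TRIM25 at -0.09. The number raised was 21 without knockdown replicate 3 and 20 with knockdown libraries 3_2 and 3_3 left out. The number lowered was 7 in both of these fits and 2 without scrambled replicate 1 or 2. Calls over all genes moved in the same direction. They were 2482 raised and 2280 lowered without knockdown replicate 3, and 2589 and 2426 without libraries 3_2 and 3_3. Without scrambled replicate 1 or 2, 628 and 623 genes were lowered. The main fit had 1745 raised and 1175 lowered. The calls of CMPK2 and TRIM25 were among those lost in the fits without scrambled replicate 1 and without scrambled replicate 2.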

How the data were processed

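RNA was sequenced from 18 libraries of K562 cells. Per the labels' protocols, a directional kit with rRNA depletion was used. Trim Galore, STAR, featureCounts and GRCh38 are named in the submitters' processing notes. Their versions, the annotation and the strand setting were not given in the sources used here. Values deposited by the authors are unnormalized whole-number counts, 1 row for each gene symbol. Groups and replicate numbers came from the labels, the first number being taken as the biological replicate. Nothing says that replicates came from separate cultures, so p-values measure only the spread between these samples, which may be technical.

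Counts were summed over the 3 technical libraries and tested in edgeR 4.0.16 (R 4.3.3, limma 3.58.1) with filterByExpr, TMM factors and robust quasi-likelihood fits, with Benjamini-Hochberg adjustment over 15678 genes, and called at an adjusted p below 0.05. No pair of columns was identical. CPM used TMM-scaled totals. Members and lists were chosen with earlier results of these data known. Values in every sample are given for members at 1 CPM or more that were called or whose groups did not overlap, and for the IFITM genes, STAT2, IRF9 and ISG15. From the other lists, up to 4 called genes per direction are named by smallest p, with means or log2 fold changes only. After values were seen, those of BST2 in every sample were added, and USP18, JAK1, TYK2, IFNAR1, IFNAR2, PTPN6 and the lymphoid markers were named. A few genes of these lists enter the counts but are not reported here by name. Gene positions, exon lengths and GC content came from GENCODE release 29 (GC for 96.4% of tested genes), and promoters from RefSeq. Alternatives were DESeq2 1.42.0, RLE factors, no count filter, a replicate block, each replicate left out, libraries entered singly or summed by the second number, removal of knockdown libraries 3_2 and 3_3 and a lowess GC correction. The same number in both groups showed no clear pairing of the samples, with correlations of deviations from the group means of 0.0302, 0.0114 and 0.0113. Such correlations cannot exclude a shared culture or batch.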

Additional observations from a re-analysis of the deposited data

How the results depend on the processing

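Raised members numbered 11 to 14 over the 15 alternatives. Over all genes, those raised numbered 1127 to 2589 and those lowered 623 to 2640 in the same alternatives. Lowered members numbered 2 in place of 1, by the addition of IRF1, with RLE factors, the replicate block, libraries entered singly, libraries summed by the second number, knockdown libraries 3_2 and 3_3 removed, GC correction, and GC correction with the replicate block, and 1 to 2 with each replicate left out. Of the 14 called members, 12 kept their call and direction in all 15 fits, the exceptions being PARP14 and PARP9, with the cause not tested. The 3 IFITM genes summed kept their call in all settings run. IRF9, not called in any fit, had a log2 fold change of 0.00026 without knockdown libraries 3_2 and 3_3.

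For the further interferon-stimulated genes, 22 were raised with libraries summed by the second number, 20 with GC correction and 20 with knockdown libraries 3_2 and 3_3 removed, and 12 to 21 with each replicate left out. Lowered ones numbered 7 without those libraries and 2 to 7 with each replicate left out. Receptor and signalling genes raised numbered 1 to 7 with each replicate left out, and lowered ones 2 to 4, and 4 were lowered with libraries summed by the second number, without libraries 3_2 and 3_3, with GC correction, and with GC correction and the replicate block. Calls over all genes also differed between these fits. They numbered 2589 raised and 2389 lowered with libraries summed by the second number, and 2322 and 2620 with GC correction. Without libraries 3_2 and 3_3 they numbered 2589 and 2426. The cause of these differences was not tested. Under the replicate block alone, whose numbers showed no clear pairing, calls over all genes were 2213 raised and 1772 lowered, beside 1745 and 1175 without it. Depth limits the 13 members under 1 CPM, which were either not tested or tested and not called, so a change in them could be missed here.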
